A study of Mus musculus with 6 samples.

Results

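The glutathione S-transferases described here are 10 genes of the cytosolic alpha, mu, pi and theta classes, chosen by symbol from the 23284 genes counted: Gsta3 and Gsta4 (alpha), Gstm1, Gstm2, Gstm3, Gstm4 and Gstm6 (mu), Gstp1 and Gstp2 (pi) and Gstt1 (theta). Their RNA was read in livers of mice of the C57BL6/J strain aged 8 weeks. There were 3 wild type libraries (WT1 to WT3) and 3 libraries of the genotype Trim24 -/- (KO1 to KO3), numbered as in the labels. Trim24 encodes a cofactor of nuclear receptors. The title names fat build-up and carcinoma of the liver as what the gene holds back. The labels name no treatment, no sex and no design of the Trim24 allele, and do not say whether replicates came from separate mice, so a p-value here rests on library-to-library spread, which may be technical.

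Glutathione S-transferases join the thiol of the tripeptide glutathione to electrophilic drugs, carcinogens and products of lipid peroxidation, and the conjugates are then exported from the cell. Hepatocytes make large amounts of them, and several members are induced through NRF2, the transcription factor of the antioxidant response, or through the xenobiotic receptors CAR and PXR. In mouse liver the pi class enzyme is known to be more abundant in males than in females.

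Of the 10 members, all of which passed the filter on low counts, Gstp2 and Gstm3 rose in the knockout, Gstm6 fell, and 7 did not pass the threshold. The threshold was a Benjamini-Hochberg adjusted p under 0.05 over all tested genes in edgeR's quasi-likelihood test. By the same rule 5.73% of the 9180 tested genes were called, 3.08% higher and 2.65% lower. The members' median log2 fold change (knockout over wild type) was 0.15, against 0.008 over all tested genes. Of the 10 fitted changes 5 were above 0, and so were 50.8% of those of all tested genes. The groups did not overlap for 3 members, and for 25% of all tested genes.

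Because members of a class resemble each other, the sequences that keep their reads apart are shown first. The coding sequences of Gstp1 and Gstp2 differed at 12 of 630 bases (98.1% identity) and shared a run of 300 bases without a difference. The stretch of 60 coding bases with the most differences between them was bases 1 to 60, counted from the A of the start codon. Capitals mark the 6 bases of Gstp2 that differ from Gstp1.
Gstp1: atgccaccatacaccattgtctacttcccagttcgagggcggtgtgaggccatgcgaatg
Gstp2: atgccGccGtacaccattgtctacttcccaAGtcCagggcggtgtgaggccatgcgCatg

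The 5 mu members were 79.1% to 89.4% identical over their 654 coding bases. Gstm3 and Gstm6, which moved in opposite directions, differed at 105 of them, and their stretch of 60 bases with the most differences was coding bases 309 to 368. It is shown for all 5, with capitals where a base differs from Gstm1.
Gstm1: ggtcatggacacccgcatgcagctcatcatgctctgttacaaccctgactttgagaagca
Gstm2: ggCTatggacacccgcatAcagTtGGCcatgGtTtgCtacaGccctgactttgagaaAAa
Gstm3: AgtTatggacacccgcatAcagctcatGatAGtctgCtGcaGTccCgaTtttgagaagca
Gstm4: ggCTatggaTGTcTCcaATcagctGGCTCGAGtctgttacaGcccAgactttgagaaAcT
Gstm6: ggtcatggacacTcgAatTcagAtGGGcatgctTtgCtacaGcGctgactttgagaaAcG

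These sequences were read from the GENCODE M21 transcripts (GRCm38). In that set, 62.3% of the 50-base windows of the Gstp1 transcript and 72.6% of those of Gstp2 also occurred in a transcript of another gene, mainly in each other and in the pseudogene Gstp-ps. The shares were 28.8% for Gstm3, 23.1% for Gstm1, 11.8% for Gstm6 and 9.36% for Gstm2, and no window was shared for Gstm4, Gsta3, Gsta4 or Gstt1. The read length, and what was done with reads that match more than 1 gene, are not given in the sources used here, so the levels of Gstp1, Gstp2, Gstm1, Gstm2, Gstm3 and Gstm6, and ratios between them, are uncertain to that extent. No member shared exon sequence with a gene at the same place in the annotation.

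Levels are given as CPM, counts scaled to a common total of reads in tested genes, with the library size scaled by the TMM factor. Reads assigned to genes numbered 1495583 to 1732309 in the wild type and 1607276 to 2872421 in the knockout libraries. They were 4.22% to 6.69% of the counted reads, and the counter assigned almost all the rest to no gene. A count of 1 was therefore worth 0.348 to 0.699 CPM. The counter's strand setting is not given, so whether the unassigned reads lie outside genes cannot be told. The part of that setting in the levels was not tested. Trim24 counts were 31, 45 and 44 in WT1 to WT3 and 3, 2 and 2 in KO1 to KO3, as the labels say. Transcripts of pancreatic acinar cells were unevenly present. In CPM, the sum over 22 listed acinar markers was 12.47 to 39.82 in wild type and 14.11 in KO2 but 1077 in KO1 and 695.8 in KO3. Of these markers 2 were at 0 in every library, and Cela1, the single one that passed the filter, had 16 to 22 reads in wild type, 21 in KO2 and 111 and 138 in KO1 and KO3. Results that differ between KO2 and the other knockout libraries are given with KO2 apart.

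Per kb of the principal transcript, Gstp1 and Gstm1 stood highest in wild type, at 1298 ± 61 and 1245 ± 159 CPM per kb (SD, n = 3), and their ranges overlapped. Gsta3 followed at 504 ± 97 and Gstm6 at 319 ± 8 CPM per kb, each apart from the next gene in the order. Gstt1 (87.5 ± 14.9) and Gstm2 (82.8 ± 15 CPM per kb) overlapped, as did Gstm3 (51.6 ± 2.5) and Gsta4 (42.6 ± 10.9 CPM per kb). Gstp2 (13.4 ± 3.4) and Gstm4 (8.59 ± 2.86 CPM per kb) were lowest and overlapped as well. With the length of all annotated exons in place of the principal transcript, Gstm1 came before Gstp1 and Gstm6 before Gsta3, and the other places were the same. In the knockout, Gstp2 stood at 64.6 ± 19.5 and Gstm3 at 93.0 ± 17.4 CPM per kb, and Gstm6 at 176 ± 32 CPM per kb.

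**Figure D1:**
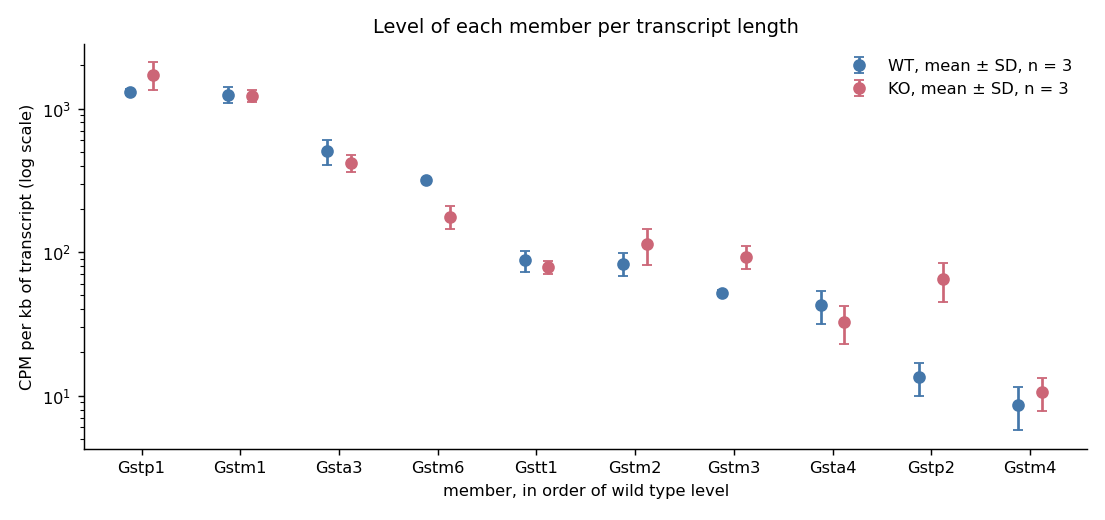
Level of each member per kb of its principal transcript (log scale), with the mean and SD of 3 wild type (blue) and 3 knockout (red) libraries, in order of the wild type level. Gstp1 and Gstm1 are at the top in both groups, and Gstp2 shows the widest gap between the groups, from 13.4 to 64.6 CPM per kb.

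The pi class held the member with the largest change of the 10. Gstp2 was at 8.38, 9.92 and 13.7 CPM in WT1 to WT3 and at 46.4, 39.1 and 68.9 CPM in KO1 to KO3, from 12, 15 and 23 and from 75, 72 and 198 reads. Every knockout library was above every wild type library. The mean went from 10.7 ± 2.7 to 51.5 ± 15.5 CPM (SD, n = 3 each), a 4.82-fold rise (log2 fold change 2.27, SE 0.28, edgeR adjusted p = 0.00041). The rise was also called with KO2 as the only knockout library (1.85, edgeR adjusted p = 0.0031).

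Its near copy Gstp1, the main pi enzyme of mouse liver, was at 1016, 1116 and 1065 CPM in WT1 to WT3 and at 1616, 1061 and 1565 CPM in KO1 to KO3. KO1 and KO3 lay above all wild type libraries, while KO2 lay within their range, so the groups overlapped. The log2 fold change of 0.41 (95% interval 0.03 to 0.78) missed the threshold (edgeR adjusted p = 0.21), and was -0.01 with KO2 as the only knockout library. KO1 and KO3 are the libraries with the acinar transcripts, whose part in the level of Gstp1 was not tested.

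Within the pair of pi members the proportions of the copies differed between the groups. Gstp2 held 0.818%, 0.881% and 1.27% of the reads of both genes in WT1 to WT3, and 2.79%, 3.55% and 4.22% in KO1 to KO3. The 95% Wilson intervals, which cover counting error only, reached at most 1.89% in wild type and began at 2.23% or above in the knockout. KO2, where Gstp1 was within the wild type range, thus had a larger Gstp2 share than each wild type library. Since Gstp2 supplied so few of the reads, the sum of both genes followed Gstp1, at 1077 ± 51 CPM (wild type) and 1465 ± 317 CPM (knockout).

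**Figure D2:**
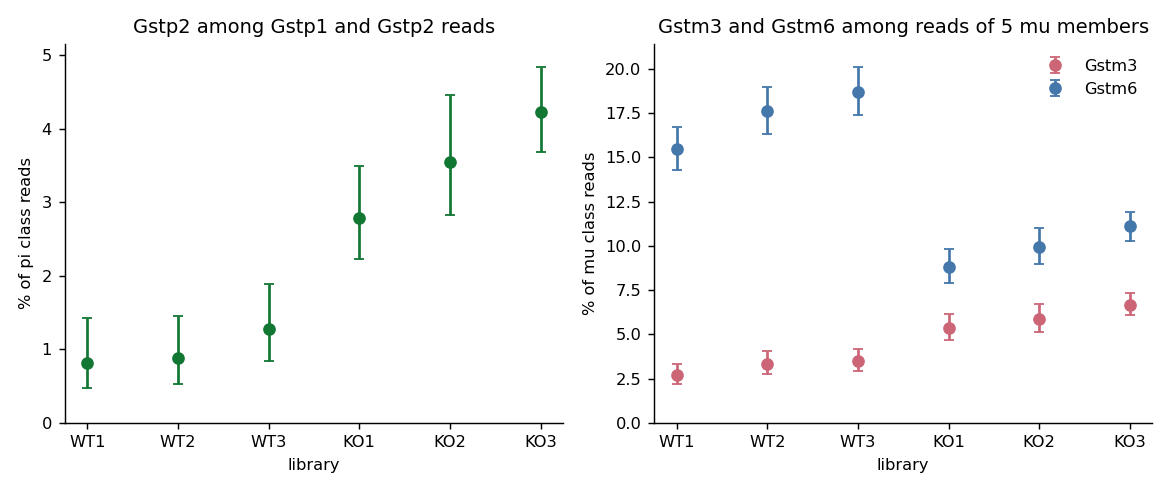
Left: share of Gstp2 among the reads of Gstp1 and Gstp2. Right: shares of Gstm3 and Gstm6 among the reads of the 5 mu members. Values are per library, with 95% Wilson intervals. The Gstp2 share is 0.818% to 1.27% in wild type and 2.79% to 4.22% in the knockout, and in the mu class Gstm3 is higher and Gstm6 lower in every knockout library.

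The promoters of the 2 pi genes are shown because Gstp2 passed the test and Gstp1 did not. They are the 250 bases before the RefSeq start sites in GRCm38.p6, both on the minus strand, at chr19:4037913-4038162 for Gstp1 and chr19:4042222-4042471 for Gstp2, and 78.1% of their aligned columns were identical. In the GENCODE annotation the Gstp2 gene reaches farther upstream, to chr19:4046023. No promoter at that end was searched. Capitals mark TGANTCA, the AP-1 site, searched on both strands.
Gstp1: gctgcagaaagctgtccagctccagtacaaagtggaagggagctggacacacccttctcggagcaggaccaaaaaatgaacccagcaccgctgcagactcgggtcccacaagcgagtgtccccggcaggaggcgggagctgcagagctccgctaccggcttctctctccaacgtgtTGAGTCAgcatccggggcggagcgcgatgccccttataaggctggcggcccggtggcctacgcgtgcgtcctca
Gstp2: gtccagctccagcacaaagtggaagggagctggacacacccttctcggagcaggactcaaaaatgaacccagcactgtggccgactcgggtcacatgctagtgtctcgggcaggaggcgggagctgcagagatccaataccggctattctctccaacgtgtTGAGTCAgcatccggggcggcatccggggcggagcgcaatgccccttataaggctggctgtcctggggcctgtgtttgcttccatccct

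This motif began 74 bases before the Gstp1 start and 89 bases before the Gstp2 start, and 6.75% of all 32851 promoters of this length held it. No other member promoter did. The string TGACNNNGC, a form of the antioxidant response element core, was found in the promoter of Gsta3 alone among the 13 promoters of 9 members (10.2% of all promoters). Forms of this core with G in place of the C were not searched for. In both pi promoters the marked TGAGTCA is followed by gc, so the search does not show that they lack such an element. The nuclear receptor half-site AGGTCA was in none of the 13 and in 14% of all. A match is a string of letters in this window and no measure of binding.

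In the mu class one member rose and its neighbour fell. Gstm3 was at 64.3, 68.1 and 70.7 CPM in WT1 to WT3 and at 113, 105 and 148 CPM in KO1 to KO3, with no overlap. The mean went from 67.7 ± 3.2 to 122 ± 23 CPM (SD, n = 3 each), 1.81-fold higher (log2 fold change 0.85, SE 0.17, edgeR adjusted p = 0.0095). With KO2 as the only knockout library the change was 0.62 and was not called (edgeR adjusted p = 0.084).

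Gstm6 was at 367, 360 and 377 CPM in WT1 to WT3 and at 186, 177 and 245 CPM in KO1 to KO3. All 3 knockout libraries lay below the wild type range. Its mean went from 368 ± 9 to 203 ± 37 CPM (SD, n = 3 each), 1.81-fold lower (log2 fold change -0.85, SE 0.16, edgeR adjusted p = 0.0080), and -1.055 with KO2 as the only knockout library (edgeR adjusted p = 0.0085). The fitted rise of Gstm3 and the fall of Gstm6 were thus close in size on the log2 scale.

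The ratio of Gstm3 to Gstm6 reads was 0.175, 0.189 and 0.187 in WT1 to WT3 and 0.608, 0.590 and 0.603 in KO1 to KO3, so it varied little within each group. This ratio was chosen after the values were seen and is given without a test, and some windows of Gstm3 and Gstm6 are shared with each other. Gstm3 made up 2.71% to 3.51% of the reads of the 5 mu members in wild type and 5.36% to 6.67% in the knockout, and Gstm6 15.5% to 18.7% and 8.82% to 11.1%. In the GRCm38 annotation the mu genes lie in 1 cluster on chromosome 3, in the order Gstm5, Gstm7, Gstm6, Gstm3, Gstm2, Gstm1 and Gstm4. Gstm6 (chr3:107938847-107943749) and Gstm3 (chr3:107963696-107969283), both on the minus strand, are next to each other in it.

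Gstm1, the most abundant mu member, was at 1841, 1497 and 1476 CPM in WT1 to WT3 and 1673, 1406 and 1648 CPM in KO1 to KO3. The groups overlapped throughout, and the 95% interval of its log2 fold change ran from -0.36 to 0.31 (edgeR adjusted p = 0.95). It held 73.2% to 79.1% of the reads of the 5 mu members in every library. Their sum therefore followed Gstm1, at 2143 ± 198 CPM (wild type) and 2039 ± 224 CPM (knockout, SD, n = 3 each).

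Gstm2 was at 78.2, 106.5 and 79.6 CPM in WT1 to WT3 and at 124, 85.2 and 152 CPM in KO1 to KO3. Like Gstp1 it was above wild type in KO1 and KO3 and within the wild type range in KO2. Its log2 fold change of 0.46 (95% interval 0.01 to 0.91) missed the threshold (edgeR adjusted p = 0.24) and was -0.05 with KO2 as the only knockout library. Gstm4, the lowest mu member with 17 to 66 reads a library, was at 14.7 ± 4.9 and 18.0 ± 4.7 CPM, with an interval of -0.31 to 0.97 that leaves its direction undetermined at this depth.

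**Figure D3:**
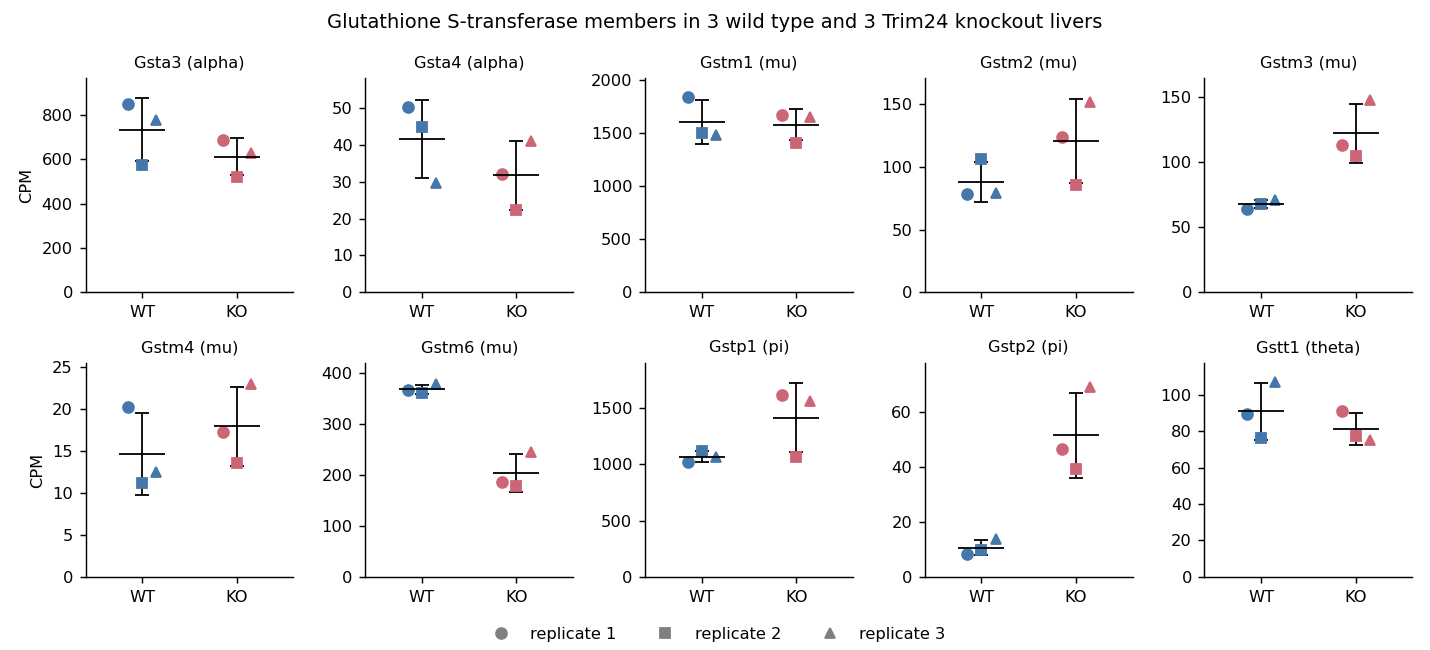
CPM of each member in each library (points, shaped by replicate number), with mean and SD (n = 3) per group; each panel has its own axis from 0. The groups separate for Gstm3, Gstm6 and Gstp2 and overlap for the other 7 members.

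The alpha and theta members were not called. Gsta3, the main alpha gene here, was at 850, 576 and 775 CPM in WT1 to WT3 and 685.5, 520 and 626 CPM in KO1 to KO3. The groups overlapped because WT2 lay below KO1 and KO3, and the 95% interval of the log2 fold change was -0.65 to 0.12 (edgeR adjusted p = 0.44). Gsta4, whose enzyme is known for conjugating the lipid peroxidation product hydroxynonenal, was at 41.7 ± 10.7 and 31.8 ± 9.4 CPM (interval -0.90 to 0.19, edgeR adjusted p = 0.47). Gstt1, which acts on small halogenated compounds, was at 90.8 ± 15.5 and 81.1 ± 8.7 CPM (interval -0.53 to 0.19, edgeR adjusted p = 0.63).

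The summed level of all 10 members was 4085 ± 269 CPM (wild type) and 4228 ± 625 CPM (knockout). The pi genes supplied 23.4% to 29.1% of the members' reads in wild type and 31.4% to 36.3% in the knockout, and the alpha genes 16.1% to 20.5% and 14.5% to 15.7%. The mu share was 50.3% to 54.1% in wild type and 46.1% to 51.0% in the knockout, where KO2 overlapped the wild type range. Theta supplied 1.97% to 2.67% and 1.64% to 2.20%. Shares of a sum are bound to each other, so a higher pi share lowers the rest.

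The knockout libraries differed among themselves. KO2 was the lowest of the 3 for 9 of the 10 members, the exception being Gstt1, while it was the lowest for 32.3% of all tested genes. Relative to the wild type mean, the 10 members summed lower in KO2 (3506 CPM) and higher in KO1 (4585) and KO3 (4592 CPM). Hepatocyte markers such as Alb were present at high levels in all libraries and summed to 106100 to 118800 CPM in wild type and to 99660, 78220 and 106200 CPM in KO1 to KO3. Their part in the lower level of KO2 was not tested.

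**Figure D4:**
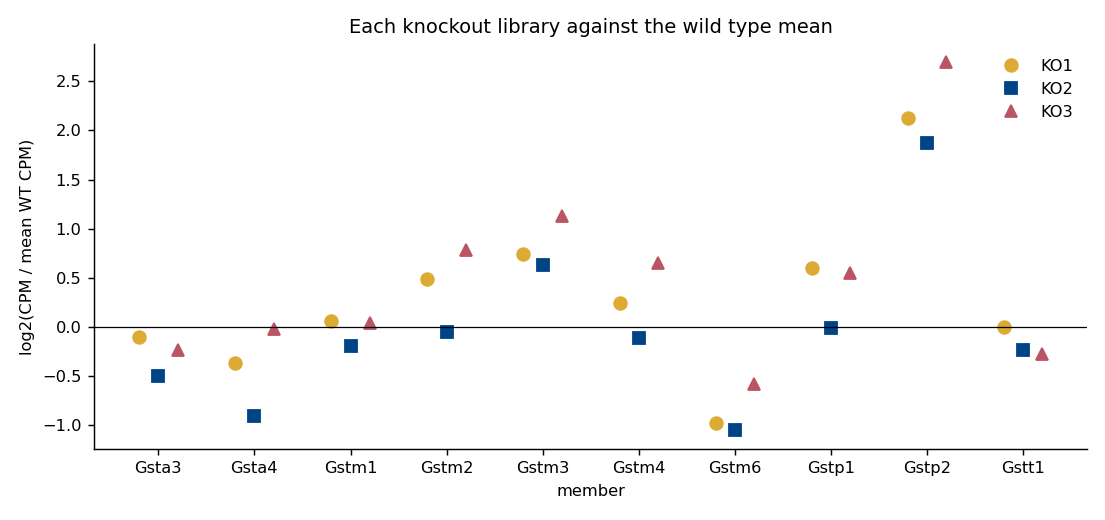
Log2 ratio of each knockout library's CPM to the wild type mean for each member; 0 is the wild type mean. Gstp2 and Gstm3 are above 0 and Gstm6 is below 0 in all 3 libraries, while Gstm1, Gstm2, Gstm4 and Gstp1 are above 0 in KO1 and KO3 but not in KO2 (squares).

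Of 19 other transferase genes in the files, 8 passed the filter, 1 rose and none fell. The riser was BC021614, at 15.4, 13.2 and 15.4 CPM in WT1 to WT3 and 56.4, 78.2 and 85.9 CPM in KO1 to KO3. It was 5.02-fold higher (log2 fold change 2.33, SE 0.22, edgeR adjusted p = 4.0e-05), and also called with KO2 as the only knockout library (2.40, edgeR adjusted p = 7.5e-05). It was listed as a further pi class gene from background knowledge, because the reference tables used here do not tie the symbol to a current one.

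The microsomal transferase gene Mgst1, with the highest CPM of the 18 tested transferase genes, was at 4114 ± 149 CPM (wild type) and 3020 ± 218 CPM (knockout), without overlap. Its log2 fold change of -0.45 missed the threshold in edgeR (adjusted p = 0.088) and passed it with DESeq2 (adjusted p = 0.037). The omega gene Gsto1 (46.8 ± 9.6 to 30.3 ± 4.4 CPM, edgeR adjusted p = 0.10) and the zeta gene Gstz1 (911 ± 33 to 743 ± 80 CPM, adjusted p = 0.29), an enzyme of tyrosine breakdown, also did not overlap and were not called. Gstm7, the mu gene beside Gstm6, was at 113 ± 11 and 127 ± 23 CPM, and Gstt2, Gstt3 and Gstk1 were not called either. The other 11 were too low to test, with group means of at most 6.64 CPM (Hpgds in the knockout). Of these, named after their values were seen, Gstt4 and Mgst2 had no read in any library, which allows up to 1.04 to 2.10 CPM per library.

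**Figure D5:**
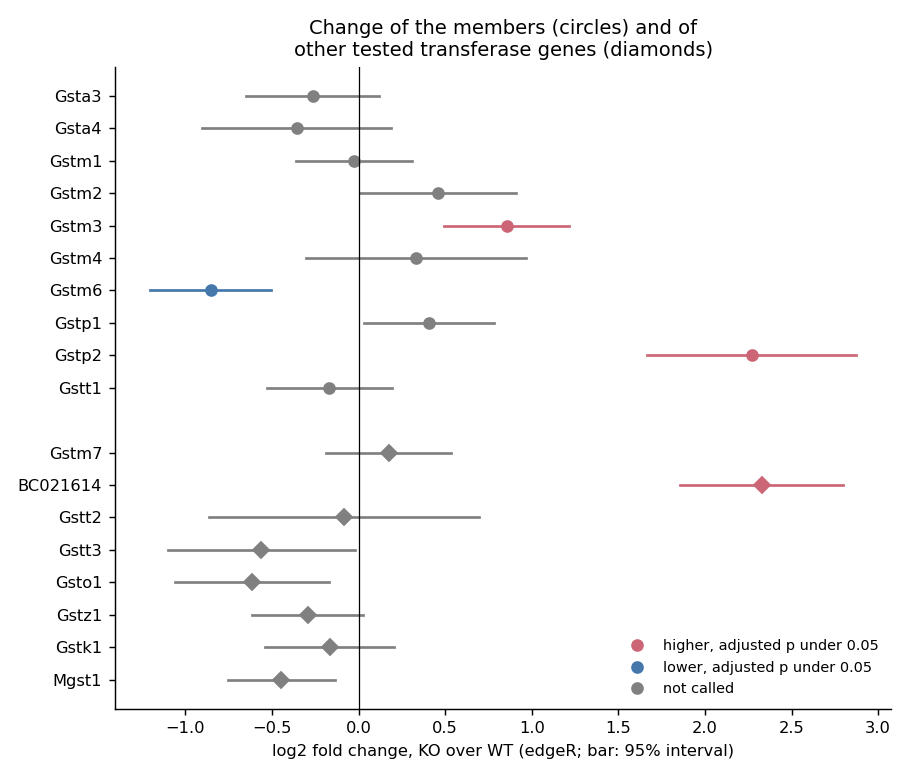
Log2 fold change with 95% interval for the 10 members (circles) and the 8 other tested transferase genes (diamonds), red where called higher, blue where called lower. Gstm3, Gstp2 and BC021614 were called higher and Gstm6 was the single gene called lower.

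Genes that make and use glutathione mostly did not pass. Of 12 tested genes of glutathione synthesis, recycling and breakdown 1 rose and none fell (median log2 fold change -0.15). That gene was Gss, glutathione synthetase, at 35.1 ± 6.2 and 58.4 ± 3.0 CPM (edgeR adjusted p = 0.032). The call ended with DESeq2 on all libraries (adjusted p = 0.058). In edgeR it ended without any single library but WT3 (adjusted p up to 0.13). With KO2 as the only knockout library the log2 fold change was 0.69, against 0.73 with all libraries. Gss shares exon sequence with Acss2 on the opposite strand. Of 9 other glutathione-using enzymes 1 fell, Glo1, which clears methylglyoxal as a glutathione adduct, from 480 ± 18 to 174 ± 19 CPM (log2 fold change -1.46, SE 0.15, edgeR adjusted p = 0.00010). Glo1 shares exon sequence with 1700097N02Rik on its own strand.

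Of 10 tested genes of conjugate export and mercapturate formation 2 fell and none rose. Abcc3, an exporter of organic anions and conjugates, fell from 358 ± 52 to 105 ± 30 CPM (log2 fold change -1.77, edgeR adjusted p = 0.00034). Abcc6 fell from 52.2 ± 10.2 to 20.9 ± 14.4 CPM (adjusted p = 0.035), a call that ended without any library but KO1 (adjusted p up to 0.15). Of 19 tested NRF2 targets outside the transferases 2 rose, 1 fell and 16 were not called (median log2 fold change 0.11). Ephx1, the microsomal epoxide hydrolase, rose from 179 ± 16 to 339 ± 36 CPM (edgeR adjusted p = 0.0035). Txnrd1, thioredoxin reductase, rose from 129 ± 13 to 205 ± 14 CPM (edgeR adjusted p = 0.019). Me1, which encodes an NADPH-forming malic enzyme, was lower (129 ± 12 and 52.0 ± 10.3 CPM, edgeR adjusted p = 0.00056). Ephx1 shares exon sequence with Gm36961 on its own strand, and Me1 with A330041J22Rik on the opposite strand. The call of Txnrd1 ended without WT2, WT3 or KO3 (adjusted p = 0.072, 0.12 and 0.055) and with KO2 as the only knockout library (0.10).

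Of 19 tested regulators of transferase genes, Nfe2l2, which encodes NRF2 itself, rose from 39.1 ± 6.0 to 68.6 ± 7.2 CPM (log2 fold change 0.82, edgeR adjusted p = 0.016). That call ended without WT2, WT3 or KO3 (adjusted p = 0.085, 0.070 and 0.051) and with KO2 as the only knockout library (0.10). Stat5b, a mediator of growth hormone signals, fell from 57.7 ± 6.3 to 33.9 ± 3.9 CPM, and Cebpa, a hepatocyte transcription factor, from 170 ± 16 to 114 ± 13 CPM. Both falls were lost without any single library but KO1 (adjusted p up to 0.10 and 0.17) and with KO2 as the only knockout library (0.069 and 0.068), and that of Cebpa also with upper quartile factors (0.052) and library sizes alone (0.080).

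Markers of sex, liver zone and cell type were set beside these results. Reads of the Y-linked genes Ddx3y, Kdm5d, Uty and Eif2s3y were present in all 6 libraries, with 36 to 547 reads per gene and library, and so were 21 to 73 reads of Xist, and none of these 5 was called. Of 12 tested male-predominant liver genes 4 rose and 2 fell. Only 5 of the 12 were fitted above 0, and the median log2 fold change was -0.24. Among those called were Cyp2u1 (31.6 ± 3.4 to 71.4 ± 19.4 CPM) and Mup20 (6591 ± 533 to 10509 ± 1018 CPM) higher and Slco1a1 (928 ± 33 to 534 ± 102 CPM) lower. Moxd1 also rose (2.88 ± 4.39 to 57.1 ± 52.6 CPM), a call lost with DESeq2 (adjusted p = 0.14) and limma-voom (0.25), and without WT1, WT3 or KO2 (0.097, 0.098 and 0.088). The call of Mup20 ended without WT1, WT2, WT3 or KO3 (adjusted p up to 0.092), that of Slco1a1 without WT2 or WT3 (0.051 and 0.060) and that of Cyp2u1 with KO2 as the only knockout library (0.15). Of 3 tested female-predominant genes Cyp2b9 rose, at 0.664 ± 0.701 and 8.36 ± 3.04 CPM, from 2, 0 and 1 and from 10, 13 and 34 reads. All 3 were fitted above 0 (median log2 fold change 0.83), while most of the 17 listed were too low to test.

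Of 12 pericentral hepatocyte genes 4 fell and none rose, with Glul, glutamine synthetase, from 1324 ± 159 to 367 ± 81 CPM and Cyp2e1 from 6708 ± 176 to 2955 ± 974 CPM, beside Oat and Slc1a2. Of 11 periportal genes 1 rose, Aldh1b1 (37.8 ± 8.1 to 76.7 ± 13.9 CPM), a call lost without WT2 (edgeR adjusted p = 0.053). Above 0 were 4 of 12 pericentral and 4 of 11 periportal fitted changes, with median log2 fold changes of -0.34 and -0.14. Aldh1b1 thus went against most of its list. In bulk liver, fewer cells of a type and less RNA per cell cannot be told apart. Of the 5 mu members only Gstm6 was called lower, and its neighbour Gstm3 was called higher (log2 fold change 0.85). Whether the falls of Gstm6 and of the pericentral genes have anything in common was not tested.

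Of 12 tested Kupffer cell and macrophage markers 3 rose and all 12 were fitted above 0 (median log2 fold change 0.80, against 0.008 over all tested genes), and the 13 in the files summed to 200.5 to 369.7 CPM in wild type and 341.8 to 626.2 CPM in the knockout. The stellate cell markers, 2 of 8 tested higher and all 8 fitted above 0 (median 0.52), summed to 572.8 to 621.7 and 748 to 864.5 CPM. Over all tested genes 50.8% were fitted above 0. Endothelial markers had 1 of 10 higher (Tek) and 1 lower (Stab2, not called without WT2 or WT3, adjusted p = 0.068 and 0.065), at 491.1 to 527.1 and 401.1 to 531.2 CPM, and 0 of 3 tested cholangiocyte markers were called, at 36.22 to 50.26 and 45.82 to 72.18 CPM. The calls of the macrophage markers C1qc, Mpeg1 and Ctss and of the stellate genes Col1a2 and Dcn each ended without WT1 and without at least 1 other library. Without WT1 their log2 fold changes were 1.20, 1.31, 0.95, 1.43 and 0.63, against 1.38, 1.36, 1.26, 1.46 and 0.66 with all libraries. The part of these cells in the levels of the members was not tested.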

How the data were processed

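Total liver RNA was extracted with TRIzol and made into Illumina libraries, per the labels' protocols. The authors deposited raw read counts per gene symbol, 1 file per library. TopHat 1.4.1, the build mm9, HTSeq and edgeR appear in the submitters' processing notes, which state no roles, and the strand setting is likewise not given. Each file held 23284 genes and 5 closing totals of the counter, which entered neither library sizes nor tests. Of the reads assigned to genes, assigned to no gene or ambiguous, 4.22% to 6.69% were assigned to genes and 0.0130% to 0.0213% were ambiguous. The number of unused columns was 0.

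The main test was glmQLFTest of edgeR 4.0.16 (R 4.3.3) on the deposited counts, scaled by TMM, after filterByExpr at a minimum count of 10, and with group as the only term. Standard errors are the log2 change over the square root of F, and p was adjusted over 9180 genes. Alternatives covered scaling, test (DESeq2 1.42.0, limma-voom 3.58.1, edgeR exact test), filter, replicate block, threshold and libraries left out. On simulated counts the test recovered most large changes but few small ones, and the share of false calls was above the nominal level, so a gene that was not called may have changed and adjusted p-values near the threshold are less firm. Names were limited to the members, the tested other transferase genes, Trim24, Y-linked and pancreatic markers, and of each other list at most 4 called genes, or the 2 most abundant where none was called; not every gene this allows is named. Sequences came from GENCODE M21 and RefSeq GRCm38.p6, which is not the build in the notes. Members matched by symbol, 9 of 10 for promoters. Beside the overlaps given above, Gstt3 and Glul share annotated exon sequence with a gene on their own strand. Gstz1, Cebpa, Stab2 and Cyp2u1 share it with genes on the opposite strand, and Xist with genes on both strands. The members and the gene lists were chosen with earlier results of these data known. Python 3.11.15 with scipy 1.17.1, Biopython 1.88 and matplotlib 3.10.9 made tables and figures.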

Additional observations from a re-analysis of the deposited data

How the results depend on the processing

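The calls of Gstp2 and Gstm6 held under all 16 alternatives in which they were tested, with adjusted p up to 0.0056 and 0.045, and log2 fold changes of 1.85 to 2.49 and -1.06 to -0.76. Gstm3 was called in 15 of 16 (adjusted p up to 0.047 without 1 library). With KO2 as the only knockout library, a fit that assumes it varies like the wild type libraries, Gstm3 was at 0.625 (adjusted p = 0.084), so 1 member was called higher, and the uncalled changes of Gstm2, Gstm4 and Gstp1 turned to -0.051, -0.102 and -0.01. The uncalled change of Gstm1 was 0.064 with library sizes alone and ran from -0.089 to 0.08 with single libraries left out. With DESeq2 1 other transferase gene, Mgst1, was called lower. When the members' reads were summed by class, the log2 fold change was 0.45 for the 2 pi members and -0.07 for the 5 mu members. BC021614 and Gstm7 did not enter these sums.

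Over all genes 283 were called higher and 243 lower, 576 and 509 without a filter, and with single libraries left out 127 to 409 and 95 to 363. Library sizes alone called 373 and 172, so that 68.4% of calls were higher in place of 53.8%, without a change in the members' calls. Same-numbered libraries did not deviate together (r = -0.0732, 0.0781 and 0.0346 for numbers 1, 2 and 3), and not every library correlated best with its own number. The replicate block gave 295 and 250 calls and the same 3 called members, with Gstp2 at 2.26, Gstm3 at 0.84 and Gstm6 at -0.87. An adjusted p under 0.1 added no member. At this depth 11 transferase genes were too low to test.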

Other observations

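Among 15 tested target genes of the xenobiotic receptors CAR and PXR, 5 fell and 1 rose (median log2 fold change -0.23). Beside Abcc3, the falls included Cyp2c29, a drug-metabolising P450, from 2913 ± 339 to 1405 ± 473 CPM (edgeR adjusted p = 0.012), and Ugt1a1, the bilirubin glucuronosyltransferase, from 275 ± 39 to 120 ± 28 CPM (adjusted p = 0.0019). The gene that rose was Cyp2b9 (log2 fold change 3.61, SE 0.65, edgeR adjusted p = 0.0056). It had 2, 0 and 1 reads in WT1 to WT3 and 10, 13 and 34 in KO1 to KO3, so the size of its rise is uncertain. Exons of Ugt1a1 are shared with the other genes of the Ugt1a locus, so its reads cannot be assigned to it alone. Cyp2c29 shares exon sequence with Cyp2c53-ps on its own strand. The fall of Cyp2c29 was not called without WT3 (adjusted p = 0.071), nor the rise of Cyp2b9 with KO2 as the only knockout library (0.085).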
